A study of Mus musculus with 18 samples.

Results

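In mouse liver, 8 circular RNAs (circRNAs) from 7 genes of amino acid and pyrimidine breakdown were examined. A circRNA is a closed loop in which the end of one exon is spliced back onto the start of an upstream exon or of itself, and the reads that cross this back-splice junction are what is counted. The members are every listed circRNA whose ends lie at exon ends of, or inside, Aass, Asl, Bckdhb, Cth, Dpyd, Gls2 or Hibadh: 8 of the 474 circRNAs in the deposited table, with 2 from Bckdhb and 1 from each of the other genes. That rule uses positions only, but the 7 genes were chosen with earlier results of these data known. All 8 passed the low-value filter, which removed 0 of the 474. The table itself holds only circRNAs above 0 in at least 9 of the 18 libraries.

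The libraries came from the livers of 18 male C57BL/6 mice, 6 per group, each library being 1 mouse. Control mice were injected with corn oil and given distilled water by mouth. Cirrhosis mice were injected with a 10% mixture of carbon tetrachloride (CCl4), a toxin that injures hepatocytes, in corn oil and were given the same water. Cirrhosis-PTH mice received the same CCl4 and, each day by mouth, PTH at 0.25 mg per g; PTH stands for Pien Tze Huang, a traditional Chinese preparation. Mice were bought at 6 weeks of age and injected into the peritoneum with 10 µl per g, 2 times a week in all 3 groups. The livers were collected at 12 weeks of treatment. The protocols name 15 treated mice per group, and 6 per group were sequenced. CCl4 injury is a chemical model, and whole liver tissue was used. The Cirrhosis-PTH group differs from Control by both agents, and no group received PTH without CCl4.

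The liver clears most dietary amino acids and sends their nitrogen into the urea cycle, and their carbon skeletons are burned in mitochondria or used to make glucose. Pyrimidine bases are broken down by a short reductive pathway that is also most active in liver. Hepatocytes hold these enzymes, but which liver cells the circRNA reads came from was not tested. The circRNAs of such genes are by-products or regulated products of splicing of the same precursor RNA, so a circRNA level is not a measure of the enzyme. The host mRNAs were not analysed here.

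The junctions of 7 of the circRNAs are shown first, because these bases identify the molecules. In each line the last 15 bases of the 3' exon are in lower case and the first 15 bases of the 5' exon that follows them are in capitals, written 5' to 3' on the gene's strand and read from the GENCODE M21 transcripts (GRCm38).
Bckdhb exons 4 to 8: gatacagtttgcaagGAAAAGATAGAGTGT
Bckdhb exons 2 to 6: tttaccgggcagcagGGCAAACTCAGAAGA
Hibadh exons 2 to 4: cccctgtctccggtgTGTGTTCTAGGTCAA
Aass exons 2 to 11: tatgttgaagaaatgCTACCACATTTGAAG
Asl exons 5 to 9: cttgccactggggagGTTGCTGAAGAGTGG
Cth exons 2 to 4: acaccacaaaccaagGGTTTTGAATACAGC
Dpyd exons 5 to 8: catttattggaatagAACTACTATGGTGCA
None of these junctions of 30 bases occurred in any of the 141767 annotated linear transcripts, so a read across one of them does not match the annotated linear RNA.

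All 8 circRNAs had both ends at exon ends of 1 annotated transcript. On GRCm38 the Bckdhb circRNAs lie on the plus strand at chr9:83988776-84012619 (exons 4 to 8, coding, 608 bp spliced) and chr9:83952524-83991822 (exons 2 to 6, 5' UTR and coding, 546 bp). They share exons 4 to 6, 399 bp, which is 65.6% of the former and 73.1% of the latter, so reads inside the shared exons could not tell them apart and only the junctions do. The Hibadh circRNA lies at chr6:52619977-52630349 (minus strand, coding, 393 bp), that of Aass at chr6:23107140-23122737 (minus strand, 5' UTR and coding, 1293 bp) and that of Asl at chr5:130016097-130018916 (minus strand, coding, 395 bp). The Gls2 circRNA lies at chr10:128207298-128208667 (plus strand, coding, 232 bp), that of Cth at chr3:157918426-157921036 (minus strand, coding, 288 bp) and that of Dpyd at chr3:118781836-118811267 (plus strand, coding, 529 bp). The table gives no strand, so strand is that of the annotated gene. An antisense gene, Gm46124, and a pseudogene, Gm29164, overlap the spans of the Bckdhb circRNAs on the other strand, with 0 bp in the circularised exons.

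**Figure D1:**
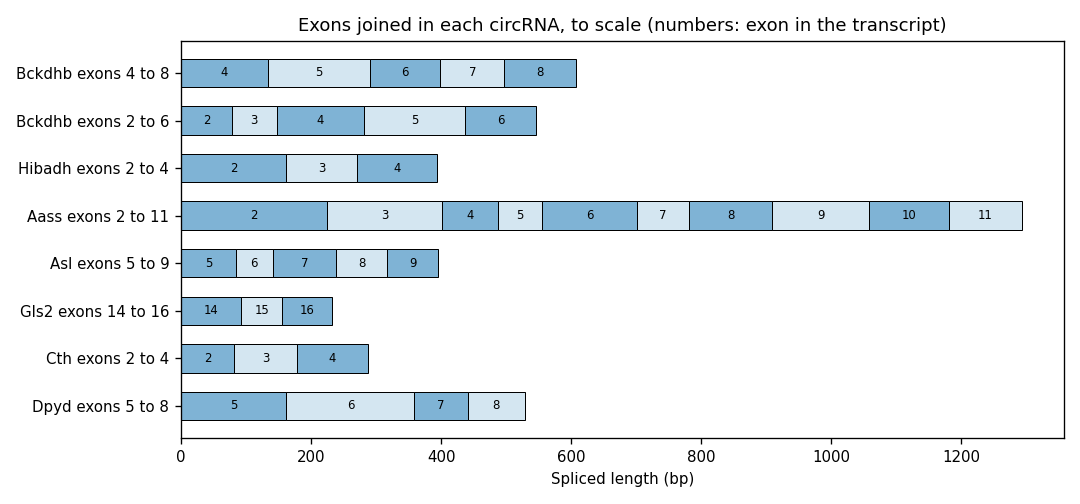
Exons joined in each of the 8 circRNAs, drawn to scale along the spliced length in bp, with exon numbers of the transcript inside the boxes. The Aass circRNA is the longest at 1293 bp and 10 exons, the Gls2 circRNA the shortest at 232 bp, and the Bckdhb pair overlaps in exons 4 to 6.

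The 8 circRNAs were spliced to a median of 462 bp (232 to 1293), against a median of 306 bp over the 435 listed circRNAs that fit in 1 transcript, and 6 of 8 were longer than that median. They joined 3 to 10 exons. Of the 8, 4 (Hibadh, Aass, Cth and Bckdhb exons 2 to 6) began at exon 2, which is 50% against 39.3% of the 435. Of the 6 that lie wholly in coding sequence, those of Cth and Hibadh had a length divisible by 3, as had 36% of the 361 coding circRNAs, so neither feature set the members apart by more than 1 circRNA. The introns beside Gls2 exons 14 to 16 were short, 294 bp upstream and 438 bp downstream, and those beside Asl exons 5 to 9 were 745 and 1365 bp, whereas the medians over the listed circRNAs were 11680 and 10469 bp. The intron after Dpyd exon 8 was the longest next to a member, 85826 bp.

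Values are CPM, junction reads scaled by a total per library whose definition the labels and header leave out, in which 1 read was worth 0.0343 to 0.37 CPM depending on the library. The members held 1347 recovered junction reads, 3.47% of the 38784 in the table, in libraries of 794 to 8431 reads, and 46.3% of the 1347 came from Bckdhb. Zeros made up 11.8% of the 144 member values, values of at most 1 read 20.1%, and values of at least 10 reads 31.2%, so most single values carry a large counting error. Of 24 group means, 9 moved by over 1.5 times when the highest library was left out. Cirrhosis 6 stood apart, with the fewest circRNAs detected (223) and the largest share of its reads in the 8 members (5.86%, against 2.06 to 5.39% in the other 17 libraries), and Cirrhosis-PTH 6 was the deepest library (8431 reads). The 18 hepatocyte marker genes looked up had 0 listed circRNAs, so the tissue label could not be checked on them. In bulk liver, fewer cells of a type and less RNA per cell cannot be told apart.

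Each read crosses 1 junction, so CPM was ranked without division by circRNA length. Whether the junctions differ in how readily they are read or called was not tested. In the mean over all 18 libraries the Bckdhb circRNAs came first among the members, at 2.29 CPM (exons 4 to 8, rank 12 of 474) and 2.14 CPM (exons 2 to 6, rank 15). Hibadh followed at 1.54 CPM (rank 27), then Cth at 1.03 (rank 63), Aass at 0.92 (rank 73) and Gls2 at 0.857 (rank 80). Dpyd at 0.332 CPM (rank 273) and Asl at 0.255 (rank 354) were near the detection floor. The order at the top depended on the libraries. Without Cirrhosis 6, Bckdhb exons 2 to 6 averaged 1.54 CPM and Hibadh 1.63. In Control alone Hibadh had the highest mean, 1.8 CPM, above Bckdhb exons 4 to 8 (1.35), Cth (1.15) and Bckdhb exons 2 to 6 (0.985). Cth varied least over the libraries (SD 0.592 of its mean) and Asl most (1.36 of its mean).

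**Figure D2:**
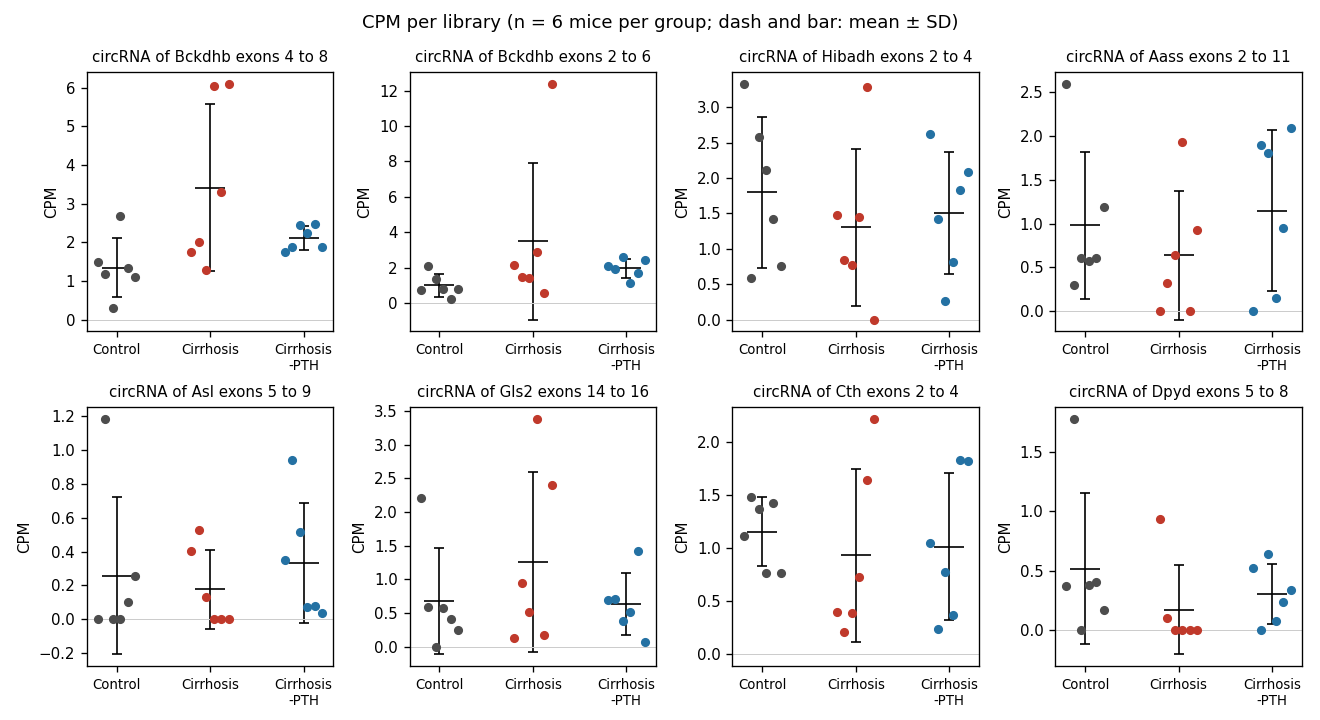
CPM of each circRNA in each library (points, 1 per mouse, n = 6 per group; the vertical scale differs between panels), with the mean (dash) and SD (bar). The Bckdhb panels show Control mostly below the other groups and Cirrhosis 6 at 12.4 CPM, and in all 8 panels the groups overlap.

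Bckdhb encodes the E1 beta subunit of the branched-chain ketoacid dehydrogenase, the enzyme complex of the committed step in leucine, isoleucine and valine breakdown. Its circRNA of exons 4 to 8 ran from 0.303 to 2.69 CPM in Control (median 1.25), from 1.29 to 6.09 in Cirrhosis (median 2.65) and from 1.75 to 2.46 in Cirrhosis-PTH (median 2.06). For this circRNA 5 of 6 Cirrhosis libraries and 6 of 6 Cirrhosis-PTH libraries lay above the Control mean, and the highest Control library, Control 6, lay above 3 of the Cirrhosis libraries and every Cirrhosis-PTH library. The means were 1.35 ± 0.772, 3.41 ± 2.16 and 2.11 ± 0.309 CPM (SD, n = 6 each) from 50, 118 and 153 reads. Of the 153 Cirrhosis-PTH reads, 55 came from Cirrhosis-PTH 6. The SD was lowest in Cirrhosis-PTH and highest in Cirrhosis, a difference in spread that was not tested.

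The Bckdhb circRNA of exons 2 to 6 ran from 0.204 to 2.07 CPM in Control (median 0.766), from 0.548 to 12.4 in Cirrhosis (median 1.81) and from 1.12 to 2.57 in Cirrhosis-PTH (median 2). Cirrhosis 6 alone, with 67 reads, made up most of the Cirrhosis mean, which was 3.48 ± 4.42 CPM with it and 1.7 CPM without it. The Control mean was 0.985 ± 0.647 CPM and the Cirrhosis-PTH mean 1.96 ± 0.526 CPM. Here too 5 of 6 Cirrhosis and 6 of 6 Cirrhosis-PTH libraries lay above the Control mean, and the groups overlapped.

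Neither Bckdhb circRNA passed the test in any comparison, in a limma model across all 474 circRNAs on log2(CPM + 0.143), a scale that understates the change of low circRNAs. For Cirrhosis against Control the log2 difference was 1.21 ± 0.57 (SE) for exons 4 to 8 (95% interval 0.09 to 2.34, limma adjusted p = 0.381, exact 2-sided permutation p = 0.039). It was 1.25 ± 0.61 for exons 2 to 6 (0.05 to 2.45, limma adjusted p = 0.381, exact permutation p = 0.0866). Without Cirrhosis 6 the latter came to 0.76 on the log2 scale, the lowest value with any 1 library left out. When each library was centred on the circRNAs detected in all 18, the differences were 0.59 and 0.63, still positive. Against Control, Cirrhosis-PTH differed by 0.78 ± 0.57 (-0.35 to 1.90) and 1.07 ± 0.61 (-0.13 to 2.27), with limma's adjusted p = 0.876 for both. The exact permutation p of these last differences was 0.0303 and 0.0195, and 0.728 and 0.71 after adjustment over all 474 circRNAs, as the 2 above became 0.44 and 0.547. The comparisons of Cirrhosis and of Cirrhosis-PTH with Control share the same 6 Control libraries.

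Cirrhosis-PTH against Cirrhosis gave Bckdhb differences of -0.44 ± 0.57 (-1.56 to 0.68) and -0.18 ± 0.61 (-1.38 to 1.01), with limma's adjusted p = 0.807 and 0.937, and both turned positive under median centring (0.12 and 0.38) and under scaling to summed CPM (0.01 and 0.23). Without Cirrhosis 6 the value for exons 2 to 6 was 0.30. The interval for exons 4 to 8 allows a level in Cirrhosis-PTH from 0.339 to 1.61 times that in Cirrhosis. Among 14 macrophage and Kupffer cell marker genes only Adgre1 and Mertk had circRNAs, 3 in all, and none was listed for Cd68, Csf1r or Clec4f. They summed to 0 to 1.02 CPM per Control library (median 0.558), 0.184 to 6.76 per Cirrhosis library (median 2.56) and 0.149 to 1.19 per Cirrhosis-PTH library (median 0.91). The single stellate cell marker circRNA, of Tmem56, had medians of 3.59, 3.64 and 1.66 CPM in the same order of groups. The single lymphocyte marker circRNA, of Ikzf1, had medians of 0.599, 0.467 and 0.422 CPM, with up to 2.19 in Cirrhosis, and the lists for endothelial cells, cholangiocytes and erythroid cells held 0. Cirrhosis 6, the highest library for both Bckdhb circRNAs, had the lowest macrophage sum of its group, and the part of other cell types in the Bckdhb values was not tested.

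The ratio of the Bckdhb pair asks whether the gene's 2 circRNAs kept their balance. Exons 4 to 8 had the higher CPM in 4 of 6 Control, 3 of 6 Cirrhosis and 2 of 6 Cirrhosis-PTH libraries, with equal values in 1 Cirrhosis-PTH library. The log2 ratio of exons 4 to 8 over exons 2 to 6 averaged 0.43 ± 1.45 over the 6 Control, 0.39 ± 1.16 over the 6 Cirrhosis and 0.13 ± 0.49 over the 6 Cirrhosis-PTH libraries (SD). No difference between groups was detected (exact 2-sided permutation p = 0.963, 0.667 and 0.647 for Cirrhosis against Control, Cirrhosis-PTH against Cirrhosis and Cirrhosis-PTH against Control, each 0.963 adjusted over the 3). Across the 18 libraries the log2 levels of the pair had a Pearson r of 0.44 (permutation p = 0.0727, adjusted over 4 relations 0.291) and a Spearman rho of 0.35 (permutation p = 0.161, adjusted 0.484). Without Control 7 and Cirrhosis 6, the 2 libraries farthest from the median of exons 2 to 6, r was 0.14. Within groups r came to -0.34 (Control), 0.56 (Cirrhosis) and -0.23 (Cirrhosis-PTH) (exact permutation p = 0.485, 0.264 and 0.688, n = 6 each), so the levels of the pair were not shown to move together.

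**Figure D3:**
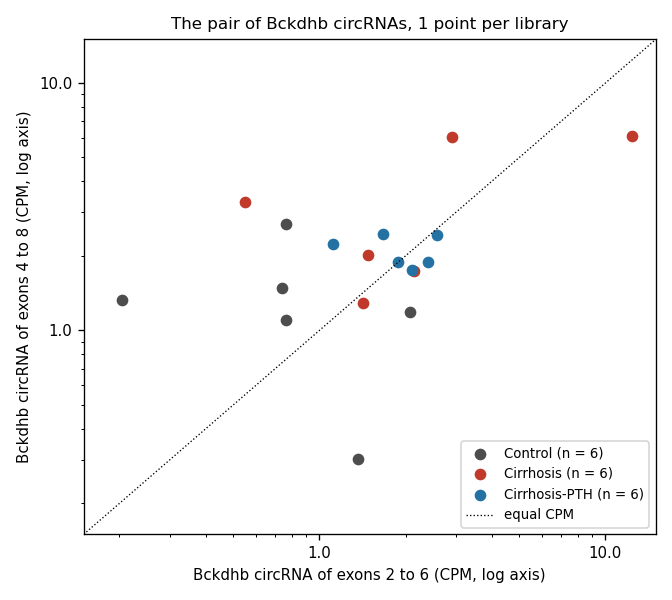
CPM of the Bckdhb circRNA of exons 4 to 8 (vertical) against that of exons 2 to 6 (horizontal), both on log axes, 1 point per library in 3 groups of 6, with a dotted line of equal CPM. Control points scatter on both sides of the line, Cirrhosis-PTH points lie close together near it, and Cirrhosis 6 lies far right at 12.4 CPM.

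Hibadh, the 3-hydroxyisobutyrate dehydrogenase of valine breakdown, acts in the same pathway downstream of Bckdhb. Its circRNA ran from 0.592 to 3.33 CPM in Control (median 1.77), from 0 to 3.29 in Cirrhosis (median 1.15) and from 0.257 to 2.63 in Cirrhosis-PTH (median 1.62). The means were 1.8 ± 1.07, 1.31 ± 1.11 and 1.51 ± 0.865 CPM, from 62, 49 and 118 reads, and the groups overlapped. Of the 118 Cirrhosis-PTH reads, 61 came from Cirrhosis-PTH 6. Cirrhosis 6 had 0 Hibadh reads, against a floor of 0.553 CPM for 3 reads, while it had 100 reads of the Bckdhb pair. The log2 difference of Cirrhosis against Control was -0.71 ± 0.65 (-1.98 to 0.55, limma adjusted p = 0.724), and -0.14 was the value nearest 0 with 1 library left out, Cirrhosis 6. Both other comparisons had adjusted p values of 0.815 and 0.972 in limma.

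Aass encodes the 2-domain enzyme that starts lysine breakdown through saccharopine. Its circRNA, from 10 exons, stood at 0.296 to 2.59 CPM in Control (median 0.609), 0 to 1.93 in Cirrhosis (median 0.483) and 0 to 2.09 in Cirrhosis-PTH (median 1.38). Reads were absent in Cirrhosis 1, Cirrhosis 5 and Cirrhosis-PTH 1, where the floor of 3 reads was 0.402, 0.548 and 0.526 CPM. The 3 groups overlapped, and 61 of the 97 Cirrhosis-PTH reads came from Cirrhosis-PTH 6. Means were 0.978 ± 0.84, 0.637 ± 0.731 and 1.15 ± 0.918 CPM, and the Cirrhosis mean was 0.377 without Cirrhosis 4. Cirrhosis against Control gave a log2 difference of -0.88 ± 0.72 (-2.29 to 0.52, limma adjusted p = 0.678) and Cirrhosis-PTH against Cirrhosis 0.77 ± 0.72 (-0.64 to 2.18, adjusted p = 0.71).

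Asl and Gls2 handle nitrogen at either end of the urea cycle: Gls2 is the liver type glutaminase, which releases ammonia from glutamine, and Asl is argininosuccinate lyase, which forms arginine and fumarate. The Asl circRNA had 30 reads in all, 8 of them from Control, 9 from Cirrhosis and 13 from Cirrhosis-PTH. It was at 0 in 3 of 6 Control and 3 of 6 Cirrhosis libraries and in none of the Cirrhosis-PTH libraries, 3 of which had 1 read each. Those 3, Cirrhosis-PTH 4, 5 and 6, had the largest totals behind their CPM of all 18 libraries (13410755, 12589924 and 29164326). Detection is thus not compared at equal depth. The highest library of each group was Control 2 at 1.18 CPM, Cirrhosis 2 at 0.53 and Cirrhosis-PTH 2 at 0.944, from 4 to 5 reads. Group means of 0.257 ± 0.465, 0.177 ± 0.233 and 0.333 ± 0.354 CPM lay below the 3-read floor of 5 of 6 Control, 6 of 6 Cirrhosis and 3 of 6 Cirrhosis-PTH libraries, and a difference was not detectable at this depth (limma adjusted p = 0.982, 0.792 and 0.943). Without those highest libraries the Asl means were 0.0713, 0.106 and 0.21 CPM.

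For Gls2 the circRNA ran from 0 to 2.22 CPM in Control (median 0.492), from 0.134 to 3.38 in Cirrhosis (median 0.736) and from 0.0686 to 1.43 in Cirrhosis-PTH (median 0.611). The libraries Cirrhosis 4 and Cirrhosis 6 were the highest of the 18, as they were for both Bckdhb circRNAs, and the groups overlapped. The means were 0.675 ± 0.787, 1.26 ± 1.33 and 0.636 ± 0.455 CPM, with Control at 0.366 without Control 1 and Cirrhosis at 0.837 without Cirrhosis 4. Gls2 differed by 0.65 ± 0.72 on the log2 scale for Cirrhosis against Control (-0.76 to 2.07, limma adjusted p = 0.808) and by -0.47 ± 0.72 for Cirrhosis-PTH against Cirrhosis (-1.88 to 0.95, adjusted p = 0.829), and the latter turned to 0.09 under median centring.

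Cth, cystathionine gamma-lyase, completes the conversion of methionine sulfur into cysteine. All 6 Control libraries fell within 0.764 to 1.48 CPM (median 1.24), while Cirrhosis ran from 0.212 to 2.21 (median 0.563) and Cirrhosis-PTH from 0.236 to 1.83 (median 0.911). In Cirrhosis, 4 libraries lay below every Control library and the other 2, Cirrhosis 5 and Cirrhosis 6, above every one. Those 4 had 2 to 3 reads each, and Cirrhosis 5 and Cirrhosis 6 had 9 and 12. Cirrhosis 4 stood at 0.725 CPM, where 1 read was worth 0.242 CPM, so 1 read more would place it within the Control range. The means were close, 1.15 ± 0.325, 0.931 ± 0.811 and 1.01 ± 0.69 CPM, from 44, 32 and 94 reads, 53 of the 94 in Cirrhosis-PTH 6. Limma gave a log2 difference of -0.57 ± 0.69 for Cirrhosis against Control (-1.91 to 0.78, adjusted p = 0.809), 0.19 ± 0.69 for Cirrhosis-PTH against Cirrhosis (adjusted p = 0.937) and -0.38 ± 0.69 for Cirrhosis-PTH against Control (adjusted p = 0.959).

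Dpyd encodes dihydropyrimidine dehydrogenase, the rate-limiting enzyme of uracil and thymine breakdown, which also inactivates the drug fluorouracil. Its circRNA was detected in 5 of 6 Control, 2 of 6 Cirrhosis and 5 of 6 Cirrhosis-PTH libraries. Values ran from 0 to 1.78 CPM in Control (median 0.377), from 0 to 0.938 in Cirrhosis (median 0) and from 0 to 0.642 in Cirrhosis-PTH (median 0.291). Of the 8 Cirrhosis reads 7 were in Cirrhosis 1 and 1 in Cirrhosis 2. The 4 Cirrhosis libraries at 0 had 3-read floors of 0.388 to 0.725 CPM, all above the Control median. No single zero thus separates its library from a typical Control level. The floors apply to each library alone, and they were not used to test the 4 zeros as a set. Mean values were 0.518 ± 0.636, 0.174 ± 0.377 and 0.304 ± 0.251 CPM, the Cirrhosis mean without Cirrhosis 1 was 0.0212 CPM, and the Control mean without Control 2 was 0.266 CPM. Dpyd had the largest negative log2 difference among the members for Cirrhosis against Control, -1.14 ± 0.70 (-2.52 to 0.24, limma adjusted p = 0.539, exact permutation p = 0.0996). Cirrhosis-PTH against Cirrhosis gave 0.79 ± 0.70 (-0.59 to 2.17, limma adjusted p = 0.698).

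**Figure D4:**
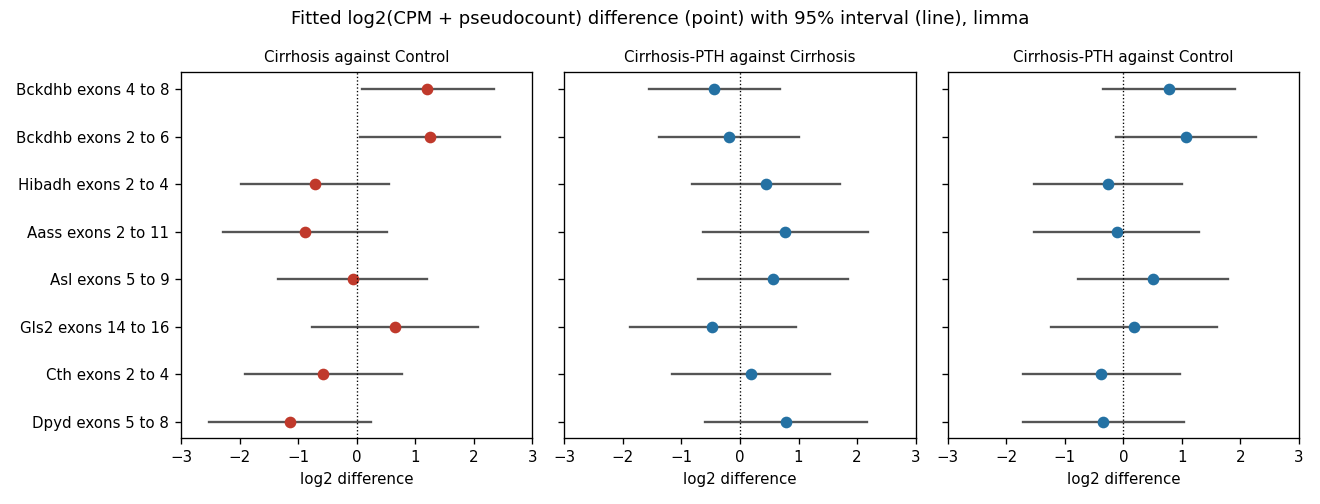
Fitted log2 difference (points) with 95% interval (lines) for each circRNA in the 3 comparisons, from the limma model of all 18 libraries on log2(CPM + 0.143). Only the Bckdhb intervals for Cirrhosis against Control leave out 0, before adjustment over 474 circRNAs, and any 2 panels share the libraries of 1 group.

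Counted together, 0 of 8 passed limma at an adjusted p of 0.05 in each of the 3 comparisons, as did 0% of all 474 circRNAs. At an unadjusted limma p of 0.05, 2 of 8 (both from Bckdhb) were under it for Cirrhosis against Control, both higher in Cirrhosis, where 12.2% of all circRNAs were (8.86% higher, 3.38% lower). In the comparison of Cirrhosis-PTH with Cirrhosis the count was 0 of 8, beside 7.17% of all (1.69% higher, 5.49% lower), and with Control it was 0 of 8, beside 5.27% (1.48% higher, 3.8% lower). On the recovered reads edgeR and DESeq2 also called 0 of 8 in each comparison. No member had groups that did not overlap, against 0.211%, 0.422% and 0.422% of all circRNAs in the same order. For Cirrhosis against Control, 3 of 8 (the Bckdhb pair and Gls2) had a positive fitted difference, with a median of -0.31, beside 56.1% and 0.12 over all 474. Median centring left 3 of 8 positive, with a median of -0.94, beside 27.4% and -0.50. For Cirrhosis-PTH against Cirrhosis, 5 of 8 were positive (median 0.32, beside 42% and -0.17 over all), 8 of 8 after median centring (0.88, beside 66.2% and 0.39) and 7 of 8 after scaling to summed CPM (0.60, beside 49.2% and -0.02). For Cirrhosis-PTH against Control it was 4 of 8 (median 0.03, beside 49.8% and -0.01). These last 2 comparisons share libraries with the first, and the signs of single members are uncertain, as each of their intervals holds 0 except those of Bckdhb for Cirrhosis against Control.

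In 6 pathway lists of 118 genes for amino acid and pyrimidine breakdown, the table held 10 circRNAs of 9 genes, so 2 lay outside the members and 0 of 10 passed limma in either direction. That of Hykk, which encodes hydroxylysine kinase of lysine breakdown, lies inside its gene away from annotated exon ends (chr9:54917859-54918246). Its means were 0.959 ± 0.542, 0.718 ± 0.838 and 0.537 ± 0.582 CPM over the Control, Cirrhosis and Cirrhosis-PTH libraries (limma adjusted p = 0.579, 0.993 and 0.876 in the order of the comparisons above). That of Upp2, a uridine phosphorylase that acts upstream of Dpyd, joins exons 3 to 6 (chr2:58771421-58780148) and stood at 0.588 ± 0.657, 0.313 ± 0.514 and 0.366 ± 0.338 CPM (adjusted p = 0.709, 0.848 and 0.959). Without its highest library, the Upp2 mean was 0.35 CPM in Control (Control 2 left out) and 0.118 in Cirrhosis (Cirrhosis 6 left out). The Hykk mean was 0.475 CPM in Cirrhosis without Cirrhosis 4 and 0.329 in Cirrhosis-PTH without Cirrhosis-PTH 1. The list for phenylalanine, tyrosine and histidine breakdown held 0 circRNAs.

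As a description of how the members varied, the Spearman correlation of CPM over the 18 libraries between 2 members had a median of 0.03 (28 pairs, -0.48 to 0.46), beside 0.06 over all 112101 pairs of circRNAs and 0.08 over the 67 pairs from 1 host. The highest was between Bckdhb exons 4 to 8 and Gls2. Among circRNAs of other hosts, the one most like Hibadh was that of Med15 exons 2 to 4 (rho 0.80), and the one most like Cth was that of Cyp4f14 exons 7 to 8 (0.75). It was that of Pard3 for Bckdhb exons 2 to 6 (0.73), Esyt2 exons 2 to 6 for Bckdhb exons 4 to 8 (0.73), Nedd4 exons 13 to 14 for Dpyd (0.72), Snx25 exons 4 to 5 for Asl (0.66) and Spred2 exons 2 to 4 for Gls2 (0.49). Each is the highest of 463 values from the same 18 libraries and their depths, and these circRNAs had 27 to 69 reads in all.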

How the data were processed

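Per the labels' protocols, RNA isolated from each liver with TRIzol was depleted of rRNA before library preparation (NEBNext kit), and no digestion of linear RNA is named. The deposited values are CPM per circRNA and library, made by the authors. Per the file headers the junction caller was CIRI. Its version and the denominator of the CPM are not given in the sources used here. Per the submitters' processing notes, tools without a stated role were cutadapt 4.2, Trim Galore, HISAT2 2.2.1, Bowtie2, Bowtie 1.3.1 and StringTie 2.1.5, and the build was GRCm38. Groups and replicate numbers come from the sample titles.

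Of the 5886 values above 0, 100% came to a whole number of reads, within 0.01, after division by the library's smallest step. Reads carry no molecular identifiers, so floors of 3 reads cover counting error only. The main test was limma 3.58.1 (trend option, R 4.3.3) on log2(CPM + 0.143), 1 model of all 18 libraries, 2-sided, with Benjamini-Hochberg adjustment over 474 circRNAs; the pseudocount is the median of the libraries' smallest values above 0, and a filter of above 0 in 6 libraries removed 0. Alternatives were other pseudocounts, filters and scalings, a depth covariate, edgeR 4.0.16 and DESeq2 1.42.0 on the recovered reads, exact permutation tests, a replicate block and each library left out. The fits were tested on simulated data. Exon ends and junctions come from GENCODE M21. Python 3.11.15 with SciPy 1.17.1 was used otherwise.

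The members and gene lists were chosen with earlier results of these data known. Named circRNAs are all of the 7 genes, all others of the pathway lists, and the 1 most like each member; 1 of the latter and 1 junction sequence are not reported here. Same-numbered libraries were checked for shared deviations (Pearson r -0.0572 to 0.0817), so numbers were not taken as pairs.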

Additional observations from a re-analysis of the deposited data

Results flagged for a closer look

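Of 24 groups of 6 values, 5 held a library far from the others by Dixon's criterion. Its rate of about 1 group in 20 by chance is for normally distributed values. CPM built from few reads need not follow that rate, so the count of 5 is not read as an excess. For Bckdhb exons 2 to 6, Cirrhosis 6 stood at 12.4 CPM (67 reads), with the next library at 2.9. Dpyd stood at 1.78 CPM in Control 2 (6 reads, next 0.408) and at 0.938 CPM in Cirrhosis 1 (7 reads, next 0.106). Asl stood at 1.18 CPM in Control 2 (4 reads, next 0.255), and Gls2 at 2.22 CPM in Control 1 (6 reads, next 0.592). Control 1 and Control 2 had the smallest totals behind their CPM (2706146 and 3378460), so 1 read weighs most there, at 0.37 and 0.296 CPM.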

How the results depend on the processing

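No member passed an adjusted p of 0.05 in limma, edgeR, DESeq2 or the permutation test in the 738 values computed over 13 other settings and with each of 18 libraries left out (smallest adjusted p 0.187, Dpyd for Cirrhosis against Control under median centring), and DESeq2 gave no adjusted p for 2 of these values. Asl and Dpyd have no value with the filter on a mean of 0.5 CPM, which removes them. Of 24 member differences 14 kept their sign in every value computed, among them both Bckdhb circRNAs against Control in both comparisons. Some of these values equal the main difference by construction and could not turn a sign. They are those without a filter, with the 0.5 CPM filter, with only the 2 groups compared and with the permutation test. Leaving out a library outside the 2 groups compared also returns the main difference.

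With limma as described above, 0 of 474 circRNAs were called in each comparison. For Cirrhosis against Control the calls came to 1 with DESeq2, which gave an adjusted p for 153 of the 474 circRNAs. With limma they came to 2 of the 160 circRNAs with a mean of at least 0.5 CPM and to 2 with median centring. With a library left out in limma, the calls came to 0 to 1 (1 without Control 3). For Cirrhosis-PTH against Cirrhosis they came to 1 with edgeR, 1 with DESeq2 and, in limma, 0 to 1 with a library left out (1 without Cirrhosis 1, 2 or 3 or Control 6), and for Cirrhosis-PTH against Control to 0 throughout. None of these calls was a member, and the cause was not tested.

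Signs turned for Cirrhosis-PTH against Cirrhosis in Bckdhb exons 2 to 6 (0.01 with the depth covariate, 0.38 with median centring, 0.23 with summed CPM), Bckdhb exons 4 to 8 (0.01 with DESeq2, 0.10 with edgeR, 0.12 with median centring, 0.01 with summed CPM) and Gls2 (0.06 with the depth covariate, 0.09 with median centring). For Cirrhosis-PTH against Control, Aass turned to 0.01 with DESeq2, 0.35 with edgeR, 0.07 with a pseudocount of 1 CPM and 0.06 with 0.571 CPM. With the title number as replicate block, the comparisons with Control kept only libraries 1, 2, 3 and 6, the numbers found in both groups. There Asl turned to 0.47 for Cirrhosis against Control, and Aass to 0.24 and Gls2 to -0.29 for Cirrhosis-PTH against Control. The effect of the block and that of the libraries left out were not separated. The block called 0 circRNAs in each comparison, as did the fit without it.

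With 1 library left out, the ranges that cross 0 were -0.34 to 0.40 for Asl (Cirrhosis against Control), -0.53 to 0.30 for Bckdhb exons 2 to 6, -0.06 to 0.48 for Cth and -0.12 to 0.81 for Hibadh (Cirrhosis-PTH against Cirrhosis). For Cirrhosis-PTH against Control they were -0.39 to 0.40 for Aass, -0.70 to 0.05 for Dpyd, -0.22 to 0.59 for Gls2 and -0.51 to 0.09 for Hibadh. The difference of the Bckdhb log2 ratio ran from -0.47 to 0.29, -0.53 to 0.13 and -0.73 to 0.04 in the 3 comparisons. The cause was not tested.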
